A study of Mus musculus with 20 samples.

Results

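The 10 genes described here encode the main heat shock chaperones of the cytosol and the mitochondrial matrix: Hspa8, Hspa1a, Hspa1b, Hsph1, Dnaja1, Dnajb1, Hsp90aa1, Hsp90ab1, Hspd1 and Hspe1. They were taken by symbol from a table of 24062 genes, and all 10 were present and well above the filter on low values at both ages. Microglial RNA was sequenced from 20 male mice of the B6D2F1/J background, with 1 whole brain, and so 1 mouse, behind each sample. At 7 months there were 6 mThy1-α-synuclein mice and 4 wild-type littermates, and at 10 months there were 5 and 5. The mThy1-α-synuclein mice carry human α-synuclein under the murine Thy1 promoter, which drives expression mainly in neurons, from an insertion on the X chromosome, and wild-type mice lack it. The study asked how microglial expression changes between the genotypes as motor symptoms progress. Microglia were selected with magnetic beads, which the methods describe as CD11b beads and the sample labels as IBA1 beads, and both antigens are shared with other myeloid cells. Mice of each age were processed together and normalized separately, so age and processing cannot be told apart and levels are compared within an age.

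Heat shock proteins bind unfolded or newly made proteins and use ATP to help them fold, to keep them soluble or to pass them on for degradation. In the cytosol, HSP70 proteins take clients from J-domain partners, release them with the help of nucleotide exchange factors and hand some of them to HSP90. In the mitochondrial matrix, HSP60 forms a folding chamber that HSP10 closes. Many of these genes are induced by the transcription factor HSF1, which binds heat shock elements built from inverted GAA repeats, while Hspa8 and Hsp90ab1 are also expressed at high levels in unstressed cells.

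Heat shock elements were looked for in the 250 bases before the RefSeq gene starts of the members, because the sequence shows what the inducible members share. Promoter windows from RefSeq (build GRCm38.p6, the mm10 genome) were matched for 7 of the 10 genes, in 12 windows, since a gene can have several starts. No window was available here for Hspa8, Hsp90aa1 and Hsp90ab1, so these genes were not searched. The 2-unit motif GAANNTTC or TTCNNGAA, each its own reverse complement, was present in 7 of the 12 windows, which belong to 6 of the 7 genes, all but Dnajb1, and in 12.8% of all 32851 windows of this length. The 3-unit motif GAANNTTCNNGAA, or its reverse complement TTCNNGAANNTTC, was present in 2 of the 12 windows, 1 of Hspd1 and that of Hspe1, and in 0.466% of all windows. The matches are shown in stretches of 30 bases on the strand of each gene, with the bases covered by the 2-unit motif in capitals.
Hspe1, chr1:55088053-55088082, plus strand: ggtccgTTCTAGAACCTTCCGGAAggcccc
Hspd1, chr1:55088053-55088082, minus strand: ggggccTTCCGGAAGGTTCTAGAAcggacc
Hsph1, chr5:149636351-149636380, minus strand: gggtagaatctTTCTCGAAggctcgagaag
Dnaja1, chr4:40722333-40722362, plus strand: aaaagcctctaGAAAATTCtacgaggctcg
Hspa1a, chr17:34972242-34972271, minus strand: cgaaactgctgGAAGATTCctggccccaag
Hspa1b, chr17:34959324-34959353, minus strand: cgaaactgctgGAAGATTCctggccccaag
The Hspe1 and Hspd1 lines are the same 30 bases read from the 2 strands, because these genes start head to head, and they hold 3 overlapping 2-unit matches. The element begins 89 bases before the Hspe1 start and 144 bases before the one of the Hspd1 starts that it precedes. In Hspa1a and Hspa1b the single match begins 104 bases before the start. The Hsph1 windows overlap and hold the same site, so the windows with a match are not independent of each other. For Dnaja1 the match is in 1 window, and its other windows hold none. By the GENCODE M21 bounds, which begin further upstream, the Hspd1, Hsph1 and Dnaja1 matches lie inside the gene. A match is a description of the letters and was not tested as a binding site.

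Hspa1a and Hspa1b encode nearly the same inducible HSP70 protein and lie side by side on chromosome 17 in the same orientation, 9951 bases apart. Their last 120 bases before the start, shown to compare these genes, differed at 1 base, and their 250 bases differed at 3.
Hspa1a, chr17:34972157-34972276, minus strand: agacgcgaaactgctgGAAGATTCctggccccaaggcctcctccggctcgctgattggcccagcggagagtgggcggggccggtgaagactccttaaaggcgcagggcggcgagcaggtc
Hspa1b, chr17:34959239-34959358, minus strand: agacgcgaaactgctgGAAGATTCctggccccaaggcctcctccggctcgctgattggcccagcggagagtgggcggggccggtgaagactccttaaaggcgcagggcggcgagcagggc
The capitals mark the 2-unit motif, as above.

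Between 33404096 and 77806399 reads per mouse were counted on genes. Values are counts divided by a size factor per mouse, called normalized counts here, and every member had at least 1526 reads in every mouse, so counting noise was small beside the differences between mice. Thy1, whose promoter drives the transgene, separated the genotypes without overlap, at 392 to 1741 normalized counts in mThy1-α-synuclein mice of either age and 9.41 to 47.6 in wild-type mice. Microglial identity genes were abundant in every group, with group means of 353842 to 423019 normalized counts for Csf1r and 251781 to 334083 for Cx3cr1. Other cell types were also present, and their levels are given beside the results they move with. In RNA from a selected cell population, fewer cells of a type and less RNA per cell cannot be told apart.

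Levels were compared per exon length, which joined the exons of all annotated transcripts of a gene. By this length the members covered a wide range of levels in the same order at the top of every group. In wild-type mice at 7 months the median normalized count per kb of exon was 20402 for Hsp90ab1, the constitutive cytosolic HSP90, 16701 for Hspa8, the constitutive HSP70, and 8787 for Hsp90aa1, the inducible HSP90. Hspa1b (5141), Hspa1a (4354), Hspd1 (3446) and Hspe1 (3062) came next, followed by the J-domain genes Dnaja1 (1294) and Dnajb1 (1016) and the HSP110 gene Hsph1 (279). Hsp90ab1 and Hspa8 overlapped between mice in every group except wild-type mice at 7 months, and the ranges of both lay above that of Hsp90aa1 throughout. Hspa1b, Hspd1, Hspa1a and Hspe1 overlapped as neighbours in the other 3 groups. By this length Dnaja1 and Dnajb1 did not differ beyond their spread except in mThy1-α-synuclein mice at 10 months, where Dnaja1 was higher. The longest coding transcript was 2394 bases for Hspa8, against 4301 bases of exon, and 2520 against 2999 for Hsp90ab1. In wild-type mice at 7 months the median counts were 71831 for Hspa8 and 61185 for Hsp90ab1. By transcript length Hspa8 would thus rank above Hsp90ab1, so the order and overlaps depend on the length used.

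**Figure D1:**
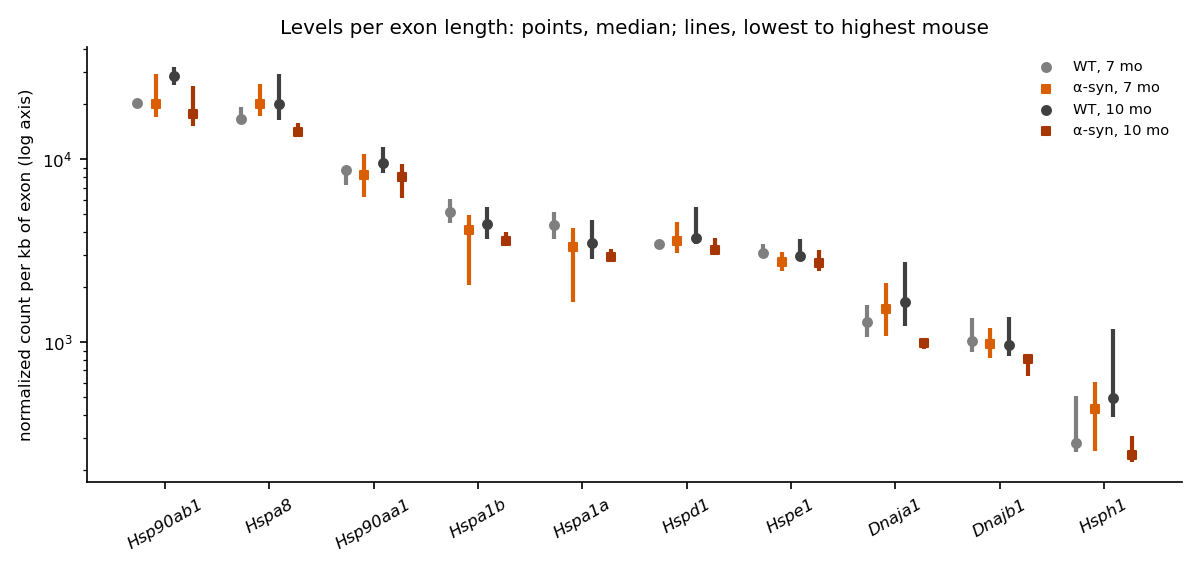
Normalized counts per kb of exon (log axis) for the 10 heat shock genes; points are group medians and lines run from the lowest to the highest mouse, for wild-type (WT) and mThy1-α-synuclein (α-syn) mice at 7 and 10 months (mo). Hsp90ab1 and Hspa8 lie highest and Hsph1 lowest in every group, and the ages were normalized separately.

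Some members share sequence with other genes, so their counts are uncertain to that extent. Of the 150-base stretches of the longest coding transcript in the GENCODE M21 annotation, 55.4% were found unchanged in transcripts of other genes for Hspa8, 40.5% for Hspa1b, 39.7% for Hspa1a and 36.2% for Hsp90aa1. For Hspa8 the largest share, 48.7%, was with the gene model Gm15459, and for Hspa1b it was with Hspa1a. The share was 18.6% for Hspd1, 14.1% for Hspe1 and 11.6% for Dnaja1, and no stretch of Hsph1, Dnajb1 or Hsp90ab1 was shared. Hspd1 and Hspe1 also overlap at their first exons on opposite strands. The treatment of reads with several matches and of strand is not given in the sources used here.

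At 10 months all 10 genes had log2 fold changes below 0 between mThy1-α-synuclein and wild-type microglia, and 5 passed the test as lower: Hsph1, Dnaja1, Dnajb1, Hspa8 and Hsp90ab1. Their levels were 0.437 to 0.744 times those of wild-type mice on the log2(value + 1) scale. The background was 3.79% of the 13627 genes tested called lower at this age, and 7.67% called in either direction. The median log2 fold change (mThy1-α-synuclein minus wild-type) over the 10 genes was -0.38, beside -0.0026 over all genes tested. In 4 of the 10 genes, Hsph1, Dnaja1, Hspa8 and Hsp90ab1, every mThy1-α-synuclein mouse was below every wild-type mouse, which was the case for 3.49% of all genes tested. The number of members called depended on single mice: it was 1 without mThy1-α-synuclein replicate 1, 2, 3 or 5 or wild-type replicate 5, 2 without mThy1-α-synuclein replicate 4 and 3 without wild-type replicate 2, while all 10 stayed below 0 in each of these fits.

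Among the cytosolic HSP70 genes, Hsph1 changed most. It encodes an HSP110 protein that exchanges nucleotides for HSP70 and lies on chr5:149614287-149636376, minus strand. Its normalized counts at 10 months were 2217, 1723, 2002, 1750 and 1597 in the mThy1-α-synuclein group and 8614, 3601, 2829, 4450 and 3449 in wild-type mice. The groups did not overlap, and wild-type replicate 1 stood far above the other wild-type mice. The log2 fold change was -1.19 (SE 0.27, adjusted p = 0.0308), and without wild-type replicate 1 it was -0.94 (adjusted p = 0.00240). The adjusted p rose above the threshold, to between 0.0519 and 0.0701, when any 1 mThy1-α-synuclein mouse or wild-type replicate 2 or 5 was left out, with log2 fold changes of -1.14 to -1.27.

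Dnaja1, a J-domain protein that brings clients to HSP70 (chr4:40722150-40737149, plus strand), had normalized counts of 9012, 8562, 8149, 8502 and 7915 in mThy1-α-synuclein mice at 10 months. In wild-type mice they were 23803, 10653, 10548, 14310 and 14313. The mThy1-α-synuclein mice lay close together below all wild-type mice, and wild-type replicate 1 was again the highest. The log2 fold change was -0.74 (SE 0.19, adjusted p = 0.0456), and -0.55 without wild-type replicate 1 (adjusted p = 0.00975). The call was lost, at adjusted p of 0.0668 to 0.0966 and log2 fold changes of -0.72 to -0.76, when any 1 mThy1-α-synuclein mouse or wild-type replicate 4 or 5 was left out. With changes of processing included, it was lost in 8 of 21 alternatives.

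Hspa8, the constitutive HSP70 that carries much of the folding and protein-transport work of unstressed cells (chr9:40800984-40810087, plus strand), had normalized counts of 60447, 58863, 58139, 67753 and 61379 in mThy1-α-synuclein mice at 10 months. In wild-type mice they were 126116, 78541, 70452, 86736 and 86279. The groups were again apart, the lowest wild-type mouse (replicate 3) lying just above the highest mThy1-α-synuclein mouse (replicate 4). The log2 fold change was -0.52 (SE 0.12, adjusted p = 0.0252), and -0.39 without wild-type replicate 1 (adjusted p = 0.0146). Leaving out mThy1-α-synuclein replicate 1, 2, 3 or 5 or wild-type replicate 5 moved the adjusted p to between 0.0537 and 0.0597 with log2 fold changes of -0.50 to -0.53. The call was also lost with limma without trend and robust estimation (adjusted p = 0.0682).

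Dnajb1, the stress-inducible J-domain partner of HSP70 (chr8:83608193-83612653, plus strand), had normalized counts of 2424, 2102, 2588, 2584 and 2755 in the mThy1-α-synuclein group at 10 months and 4389, 2983, 2685, 3098 and 3772 in wild-type mice. The groups overlapped, since mThy1-α-synuclein replicate 5 was above wild-type replicate 3. The log2 fold change of -0.43 (SE 0.12, adjusted p = 0.0464) had the largest adjusted p of the 5 calls. It did not pass the test when any 1 mThy1-α-synuclein mouse or wild-type replicate 1, 2 or 5 was left out (log2 fold changes of -0.33 to -0.47, adjusted p of 0.0624 to 0.105). With changes of processing included, the call was lost in 11 of 21 alternatives. The largest adjusted p, 0.106, came from limma without trend and robust estimation.

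The inducible HSP70 genes Hspa1a and Hspa1b did not pass the test at 10 months. Hspa1a had 8465 to 9534 normalized counts in the mThy1-α-synuclein group and 8443 to 13803 in wild-type mice, a log2 fold change of -0.26 (SE 0.11, adjusted p = 0.156). Hspa1b had 9742 to 11224 and 10280 to 15380, a log2 fold change of -0.26 (SE 0.093, adjusted p = 0.0979). Both ranges overlapped, and the mThy1-α-synuclein mice were the closer together, with a CV of 4.91% against 19.3% for Hspa1a. Without wild-type replicate 4, the lowest of its group in both genes, the adjusted p was 0.0459 for Hspa1a and 0.0354 for Hspa1b, at log2 fold changes of -0.34 and -0.33. The ratio of Hspa1a to Hspa1b stayed between 0.821 and 0.911 over all 20 mice, while Hspa1a alone ran from 4894 to 15351 normalized counts. Of their 150-base stretches, 38.1% of those of Hspa1a and 40.5% of those of Hspa1b were found in the other gene. The part of shared reads in this ratio was not tested.

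Of the HSP90 genes, Hsp90ab1 gave the smallest adjusted p of the members at 10 months. This gene (chr17:45567775-45573271, minus strand) had normalized counts of 53384, 75254, 63926, 49748 and 45655 in the mThy1-α-synuclein group and 96207, 90074, 81082, 85588 and 76512 in wild-type mice. The groups did not overlap, although mThy1-α-synuclein replicate 2 came close to wild-type replicate 5, and here the wild-type mice were the closer together. The log2 fold change was -0.60 (SE 0.12, adjusted p = 0.0110), and the call was kept in all 21 alternatives, with a largest adjusted p of 0.0434. Hsp90aa1, its inducible counterpart, had 24290 to 37161 normalized counts in the mThy1-α-synuclein group and 33102 to 45987 in wild-type mice, with overlap (log2 fold change -0.33, SE 0.12, adjusted p = 0.111). The ratio of Hsp90aa1 to Hsp90ab1 was 0.488 to 0.647 in mThy1-α-synuclein mice and 0.408 to 0.478 in wild-type mice at this age.

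The mitochondrial pair did not pass the test at 10 months. Hspd1, which encodes HSP60, had 8182 to 9759 normalized counts in the mThy1-α-synuclein group and 9147 to 14583 in wild-type mice (log2 fold change -0.26, SE 0.11, adjusted p = 0.167). Hspe1, which encodes its lid HSP10, had 3634 to 4689 and 4072 to 5371 (log2 fold change -0.16, SE 0.094, adjusted p = 0.340). Both genes overlapped between the genotypes, and the 95% confidence interval of the log2 fold change ran from -0.50 to -0.025 for Hspd1 and from -0.36 to 0.044 for Hspe1. Of the 7 members whose promoter windows were searched, these were the ones with the 3-unit heat shock element shown above. Hspe1 had the smallest difference of the 10 members. A link between the element and the differences was not tested.

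**Figure D2:**
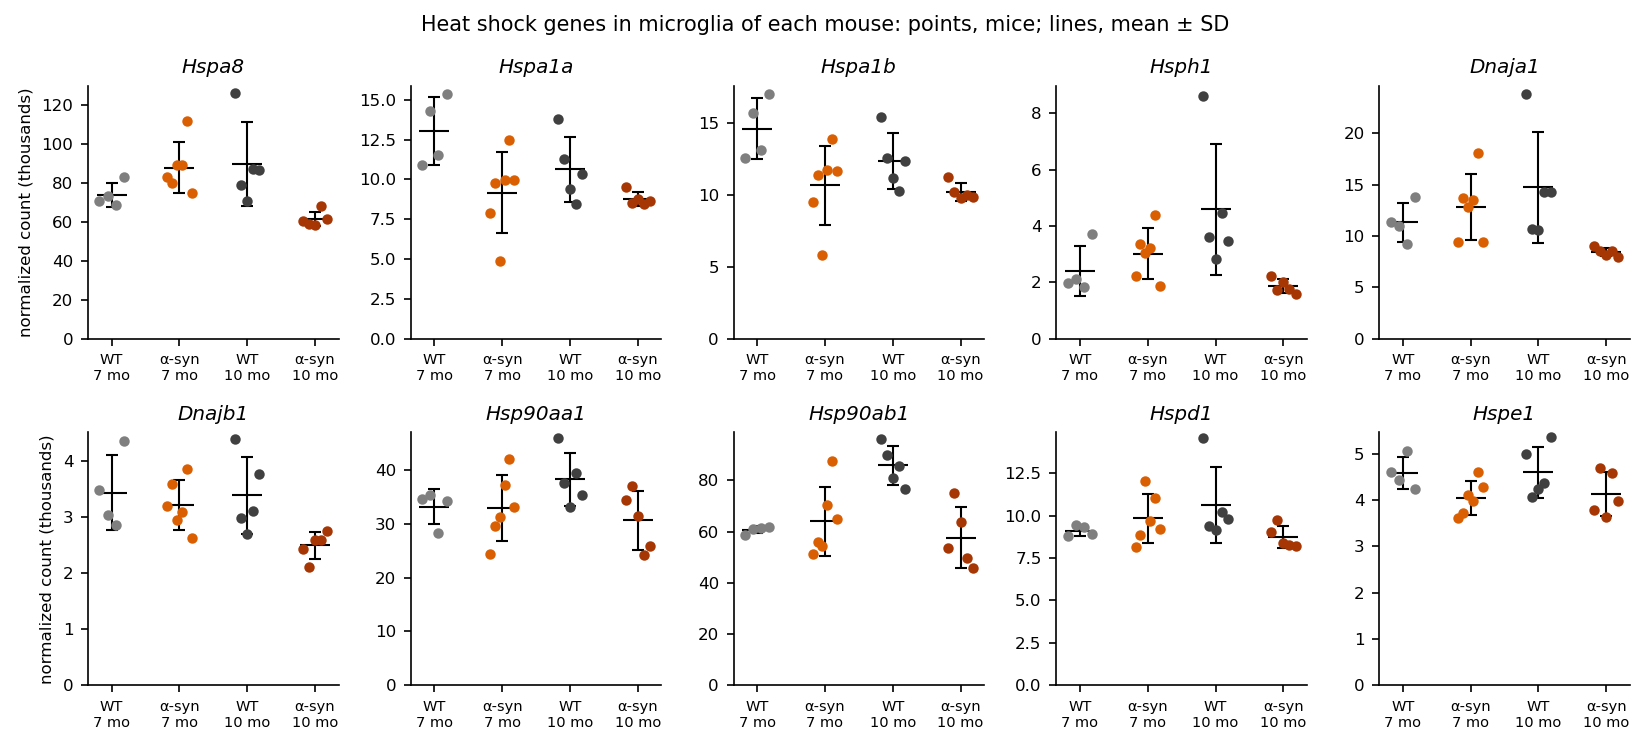
Normalized counts (in units of 1000, axes from 0) of the 10 heat shock genes in each of the 20 mice, for wild-type (WT) and mThy1-α-synuclein (α-syn) mice at 7 and 10 months (mo); points are mice and lines the mean ± SD. At 10 months Hsph1, Dnaja1, Hspa8 and Hsp90ab1 do not overlap between the genotypes, and in wild-type mice Hsph1 reaches 8614 in replicate 1.

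At 7 months no member passed the test, beside 4.93% of the 13887 genes tested, and 5 of the 10 lay above 0 and 5 below. With limma 3 of the 10 had an unadjusted p under 0.05, Hspa8, Hspa1a and Hspe1, with edgeR 1 and with DESeq2 4, beside 21.3%, 21.2% and 21.3% of all genes tested, and none of these tools called any. The median log2 fold change over the members was 0.014, beside 0.0009 over all genes tested. No member had groups without overlap, beside 7.53% of all genes tested in either direction.

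Hspa8 was 74533 to 111449 normalized counts (median 85838) in mThy1-α-synuclein mice at 7 months and 70737, 72924, 68295 and 82691 in wild-type mice. The ranges overlapped, through wild-type replicate 4 and the lower mThy1-α-synuclein mice, and the log2 fold change was 0.24 (SE 0.10, adjusted p = 0.170). Hsph1 was 1849 to 4388 (median 3128) in mThy1-α-synuclein mice and 1957, 2104, 1826 and 3695 in wild-type mice, with a log2 fold change of 0.34 (SE 0.28, adjusted p = 0.525). Its wild-type mice fell into 3 low values and 1 high one, within the range of the other genotype. Hsp90ab1 was 51223 to 87506 (median 60463) in mThy1-α-synuclein mice and lay between 58838 and 61661 in all 4 wild-type mice, with a log2 fold change of 0.052 (SE 0.12, adjusted p = 0.847). The wild-type values thus fell inside the wider mThy1-α-synuclein range.

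Hspa1a and Hspa1b had the most negative log2 fold changes of the members at 7 months. Hspa1a was 4894 to 12458 normalized counts (median 9863) in mThy1-α-synuclein mice and 10912, 14305, 11528 and 15351 in wild-type mice. A single mThy1-α-synuclein mouse, replicate 5, lay within the wild-type range, and replicate 3 was far below all others. The log2 fold change was -0.55 (SE 0.24, adjusted p = 0.227) for Hspa1a and -0.49 (SE 0.22, adjusted p = 0.239) for Hspa1b. Without replicate 3 the log2 fold changes were -0.38 and -0.33 (adjusted p = 0.143 and 0.133). Summing both genes removes the division of shared reads between them, but not the question of whether such reads were counted. The sum had a log2 fold change of -0.52 (adjusted p = 0.233) at 7 months and -0.26 (adjusted p = 0.121) at 10 months. The log2 fold changes of the other members at 7 months were 0.15 for Dnaja1, 0.098 for Hspd1, -0.025 for Hsp90aa1, -0.087 for Dnajb1 and -0.18 for Hspe1, with adjusted p of 0.217 to 0.935.

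**Figure D3:**
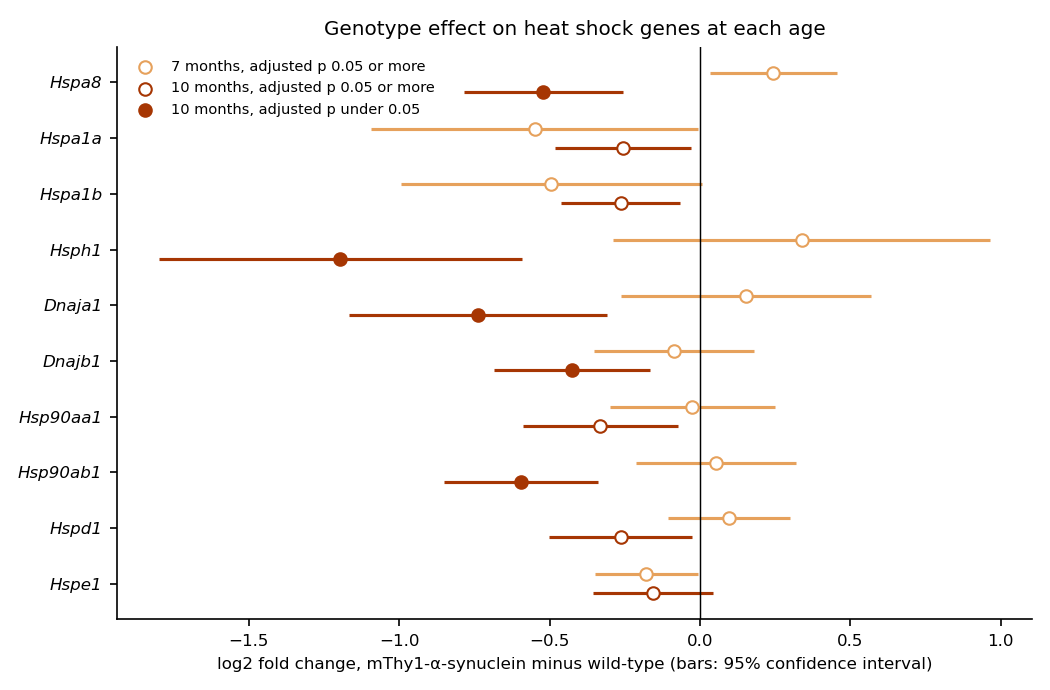
Log2 fold change (mThy1-α-synuclein minus wild-type, on the log2(value + 1) scale) of the 10 heat shock genes at 7 and 10 months; bars are 95% confidence intervals and filled points have an adjusted p under 0.05. All 10 points lie below 0 at 10 months, and 5 of 10 do at 7 months.

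The genotype effect itself differed between the ages for 3 of the 10 members, Hspa8, Hsph1 and Hsp90ab1, all more negative at 10 months. The background was 2.73% of 14030 genes called negative and 6.60% called in either direction. The difference of the log2 fold changes, 10 months minus 7 months, was -0.76 for Hspa8 (SE 0.17, adjusted p = 0.00917), -1.53 for Hsph1 (SE 0.40, adjusted p = 0.0308) and -0.65 for Hsp90ab1 (SE 0.19, adjusted p = 0.0388). For Dnaja1 it was -0.89 (SE 0.29, adjusted p = 0.0704), which missed the threshold. Hspa1a and Hspa1b had differences of the opposite sign, 0.29 and 0.23, that did not pass it (adjusted p = 0.563 and 0.627), and Hspe1 was at 0.022 (adjusted p = 0.940). The number of members called fell from 3 to 1, Hspa8, without mThy1-α-synuclein replicate 5 or wild-type replicate 4 at 10 months or wild-type replicate 1, 2 or 3 at 7 months. The Hspa8 difference was called in all 31 alternatives. The Hsph1 difference was not called without mThy1-α-synuclein replicate 2 or 5 or wild-type replicate 4 at 10 months, or wild-type replicate 1, 2 or 3 at 7 months, at adjusted p of 0.0504 to 0.0661 and differences of -1.42 to -1.51. The Hsp90ab1 difference was not called without mThy1-α-synuclein replicate 1, 4 or 5 or wild-type replicate 1, 2 or 4 at 10 months, or mThy1-α-synuclein replicate 4 or 6 or any 1 wild-type mouse at 7 months, at adjusted p of 0.0523 to 0.0791 and differences of -0.57 to -0.66. With DESeq2 the Dnaja1 difference was called (-0.97, adjusted p = 0.0289), and with limma it was called without wild-type replicate 3 at 10 months (-0.996, adjusted p = 0.0419) or mThy1-α-synuclein replicate 6 at 7 months (-0.97, adjusted p = 0.0480).

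Within a group, most members were high or low in the same mice. Wild-type replicate 1 at 10 months was the highest of its group in 9 of the 10 members, all but Hspe1, and above its group mean in all 10, by 0.45 on the log2 scale on average. Wild-type replicate 3 of that age was below its group mean in all 10, with a mean deviation of -0.25, and the lowest of its group in 6. At 7 months mThy1-α-synuclein replicate 5 was the highest of its group in 9 members, all but Hspd1, at an average of 0.39 above the group mean. Wild-type replicate 4 was the highest of its group in 7 members. In mThy1-α-synuclein mice at 10 months no mouse was highest in more than 4 members, and the mean deviations of the 5 mice ran from -0.089 to 0.065.

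The spread between mice was unequal among the groups. The median SD of the members' log2 values was 0.27 in wild-type and 0.13 in mThy1-α-synuclein mice at 10 months, and 0.18 in wild-type and 0.28 in mThy1-α-synuclein mice at 7 months. For the 6441 genes with a mean of at least 1000 normalized counts, the median SD was 0.12 to 0.13 in all 4 groups. In wild-type mice at 10 months all 10 members were above that median, and in mThy1-α-synuclein mice of that age 5 were. Without wild-type replicate 1, the 10-month comparison called 4 members in place of 5, all 10 stayed below 0 and their median was -0.30.

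**Figure D4:**
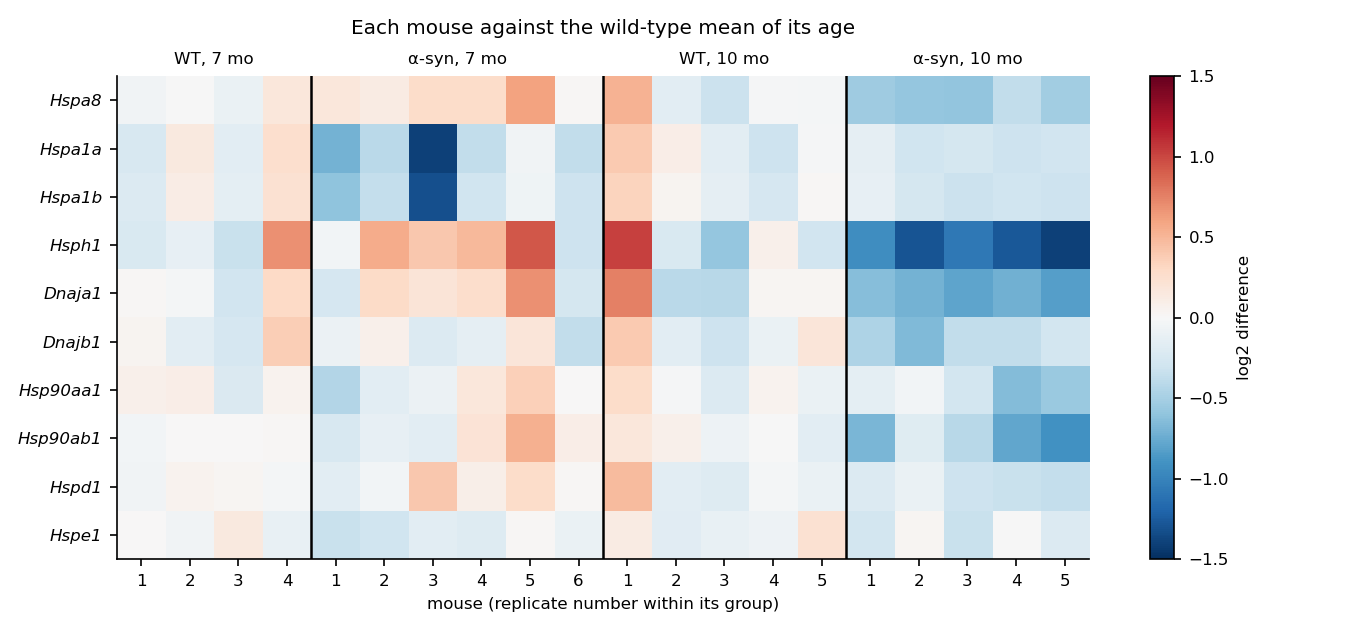
Log2 difference of each mouse (columns, by replicate number) from the wild-type mean of its own age for the 10 heat shock genes (rows); red is above and blue below, in wild-type (WT) and mThy1-α-synuclein (α-syn) mice at 7 and 10 months (mo). Replicate 1 of the 10-month wild-type mice is above 0 in all 10 genes, 4 of the 5 mThy1-α-synuclein mice of that age are below 0 in all 10, and replicate 3 of the 7-month mThy1-α-synuclein mice is at -1.40 for Hspa1a.

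Over the 20 mice, after the mean of each group was subtracted, the members followed each other to different degrees. These correlations are descriptions over mice that share their group's processing. Pearson's r was 0.992 between Hspa1a and Hspa1b, which share sequence. The value was 0.923 between Hsph1 and Dnaja1, 0.894 between Hspa8 and Dnaja1 and 0.825 between Hsp90aa1 and Hsp90ab1. It was 0.0181 between Dnajb1 and Hsp90ab1, the lowest of the pairs. Dnaja1 was most like the mean of the other 9 members (r = 0.881) and Hspe1 least (r = 0.278). For Hspd1 the value was 0.221 at 7 months and 0.953 at 10 months, and over all mice it fell from 0.60 to 0.373 without wild-type replicate 1 of the 10-month group.

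Of 13474 other genes tested at both ages, those whose deviations were most like the mean of the 10 members were Stip1 (r = 0.920), Cacybp (0.815), Dynll1 (0.814), Lins (0.807) and Shoc2 (0.805). The median over these genes was 0.0196. Stip1 encodes HOP, the adaptor that holds HSP70 and HSP90 together while a client is passed on, Cacybp encodes the calcyclin-binding protein, Dynll1 a dynein light chain and Shoc2 a scaffold of the Ras pathway. Without wild-type replicate 1 of the 10-month group the 5 values were 0.874, 0.798, 0.786, 0.800 and 0.764.

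The wider chaperone network was read from 8 lists with 91 genes other than the members, of which 86 were tested at 7 months, 85 at 10 months and 86 for the difference. At 10 months 10 were called lower in the mThy1-α-synuclein group and 0 higher (limma; with edgeR also 10 and 0, and with DESeq2 14 and 0), with a median log2 fold change of -0.057. At 7 months 2 were lower, Pfdn5 and Dnajc19, and 2 higher, Hspa12a and Clpx, with a median of 0.0023. The genotype effect was more negative at 10 months for 10 and more positive for 3. The share called in either direction was 11.8% of the wider genes tested at 10 months, beside 7.67% of all genes tested. At 7 months it was 4.65% beside 4.93%, and in the difference 15.1% beside 6.60%. Of the 10 calls at 10 months, 7 were HSP90 cochaperones. Single mice moved these counts too. At 10 months 5 genes were called without mThy1-α-synuclein replicate 1 or 5, and 6 without mThy1-α-synuclein replicate 3 or wild-type replicate 4. At 7 months 2 were called without mThy1-α-synuclein replicate 1, 2 or 3 or wild-type replicate 2, and 1 without wild-type replicate 1 or 3. For the difference the count was 8 without wild-type replicate 3 of the 7-month group.

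Of the 17 HSP90 cochaperones, 7 were called lower in mThy1-α-synuclein mice at 10 months, beside 3.79% of all genes tested. The median log2 fold change of the 17 was -0.28. Over both ages and their difference, the genes with the smallest p-values were Stip1, Fkbp4, an immunophilin of the HSP90 complex, Ahsa1 and Ahsa2, which belong to the family of HSP90 ATPase activators, and Chordc1, which binds HSP90. Stip1 had 3472 ± 273 normalized counts (SD, n = 5) in mThy1-α-synuclein and 6238 ± 1575 (SD, n = 5) in wild-type mice. Its groups did not overlap, with a log2 fold change of -0.82 (SE 0.13, adjusted p = 0.00392). At 7 months the order of its means was the opposite, 4842 ± 849 (SD, n = 6) against 3844 ± 267 (SD, n = 4), but the log2 fold change of 0.32 did not pass the test (adjusted p = 0.0973). The difference between the ages was -1.14 (SE 0.18, adjusted p = 0.00112). At 10 months the log2 fold change was -0.55 for Fkbp4 (adjusted p = 0.00484), -0.41 for Ahsa1 (0.0120), -0.68 for Ahsa2 (0.0136) and -0.66 for Chordc1 (0.0476), each with no overlap between the genotypes. The other 2 calls at 10 months, named after their values were seen, were Ppid (-0.36, adjusted p = 0.0333, with overlap) and Tomm34 (-0.28, adjusted p = 0.0414). Ppid lost its call without mThy1-α-synuclein replicate 1, 3 or 5 or any 1 wild-type mouse other than replicate 3, and Tomm34 without any 1 mThy1-α-synuclein mouse or wild-type replicate 2, 3 or 4 (adjusted p of up to 0.0796 and 0.101). The 10-month calls of Stip1, Fkbp4, Ahsa1 and Ahsa2 were kept in all 21 alternatives. Chordc1 lost its call without any 1 mThy1-α-synuclein mouse or wild-type replicate 4 or 5, at adjusted p of up to 0.104. The difference between the ages was called for these 5 cochaperones and for no other of the 17, and when 1 mouse was left out Ahsa2 lost that call without wild-type replicate 3 of the 7-month group (adjusted p = 0.0525).

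Few partners of HSP70 outside the members passed the test. Of 16 other cytosolic J-domain genes, Dnajb2 was lower at 10 months (log2 fold change -0.60, SE 0.11, adjusted p = 0.00713). Of 9 exchange factors and ligase genes, Bag2 was lower (-0.96, SE 0.24, adjusted p = 0.0292), at 40.4 ± 7.13 against 79.8 ± 14.7 normalized counts (SD, n = 5 each). Bag1, a nucleotide exchange factor, passed the test in the difference between the ages (0.43, adjusted p = 0.0467) and at neither age alone. Of 7 other HSP70 and HSP110 genes, Hspa12a was higher at 7 months (log2 fold change 1.82, SE 0.42, adjusted p = 0.0348), with overlap between the genotypes, and not called at 10 months (0.62, adjusted p = 0.510). Dnajb2 kept its call in all 21 alternatives. Bag2 lost it without mThy1-α-synuclein replicate 1, 2 or 5 or wild-type replicate 1 or 3 (adjusted p of up to 0.0651). Bag1 lost its call without mThy1-α-synuclein replicate 2, 3, 4 or 5 or wild-type replicate 1, 2 or 4 at 10 months, or mThy1-α-synuclein replicate 1 or 2 or wild-type replicate 1, 2 or 3 at 7 months (up to 0.0935). Hspa12a lost its call without mThy1-α-synuclein replicate 1, 2, 3 or 5 or any 1 wild-type mouse (up to 0.111).

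Hsf1, the main heat shock transcription factor, was not called at either age, at 933 ± 40.0 (SD, n = 6) against 820 ± 137 normalized counts (SD, n = 4) at 7 months and 835 ± 91.5 against 958 ± 116 (SD, n = 5 each) at 10 months. Its log2 fold changes were 0.20 and -0.19 (adjusted p = 0.295 and 0.285). The transcript level of a factor does not report its activity. None of the 3 tested genes of this list and none of the small heat shock protein genes tested passed the test at either age or in the difference. Among the latter Hspb3 had the smallest p, with a log2 fold change of 0.42 at 7 months (adjusted p = 0.0936).

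Of the 13 tested genes of the cytosolic chaperonin and prefoldin, which fold actin and tubulin, Cct3 was lower at 10 months (log2 fold change -0.27, adjusted p = 0.0498) and Pfdn5 at 7 months (-0.46, adjusted p = 0.00567). Cct8 was called in the difference between the ages alone (-0.37, adjusted p = 0.0343). Of 14 other mitochondrial chaperones and proteases none passed at 10 months. At 7 months the protease subunit Clpx was higher (0.33, adjusted p = 0.0203) and the import motor subunit Dnajc19 lower (-0.36, adjusted p = 0.0416). Both were called in the difference, and so was the inner membrane protease Yme1l1 (-0.35, adjusted p = 0.0277). The 7-month call of Pfdn5 was kept in all 21 alternatives. That of Clpx was lost without wild-type replicate 1 or 3 (adjusted p of up to 0.0748), and that of Dnajc19 without wild-type replicate 1, 2 or 3 or any 1 mThy1-α-synuclein mouse other than replicate 5 (up to 0.126). Cct3 lost its 10-month call without any 1 mouse other than wild-type replicate 3 (up to 0.1004). In the difference, Cct8 lost its call without mThy1-α-synuclein replicate 3, 4 or 5 or wild-type replicate 1 at 10 months, or mThy1-α-synuclein replicate 3 or any 1 wild-type mouse at 7 months (up to 0.0655). Yme1l1 lost its call without mThy1-α-synuclein replicate 3 or wild-type replicate 1 or 4 at 10 months, or wild-type replicate 3 at 7 months (up to 0.0668).

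Chaperones of the endoplasmic reticulum, which are induced by a separate stress pathway, were taken for comparison. Of 15 genes, 11 were called lower at 10 months (median log2 fold change -0.47), beside 3.79% of all genes tested. At 7 months 6 were called higher (median 0.24) and the other 9 did not pass the test, beside 2.23% of all genes called higher. Hsp90b1, the HSP90 of the endoplasmic reticulum, had log2 fold changes of 0.30 at 7 months (adjusted p = 0.0337) and -0.47 at 10 months (adjusted p = 0.00489). Calr was called at 10 months (-0.47, adjusted p = 0.00393) and not at 7 months (0.15, adjusted p = 0.273), and Canx at neither age. The 10-month calls of Hsp90b1 and Calr were kept in all 21 alternatives, and without 1 mouse 9 to 11 of the 15 genes were lower at that age. At 7 months the count of 6 fell to 3 without mThy1-α-synuclein replicate 3 or 6 or wild-type replicate 2 and to 2 without wild-type replicate 1 or without trend and robust estimation, and Hsp90b1 lost its call without mThy1-α-synuclein replicate 3, 5 or 6 or any 1 wild-type mouse (adjusted p of up to 0.101). Whether the members and these genes differ in their response was not tested.

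**Figure D5:**
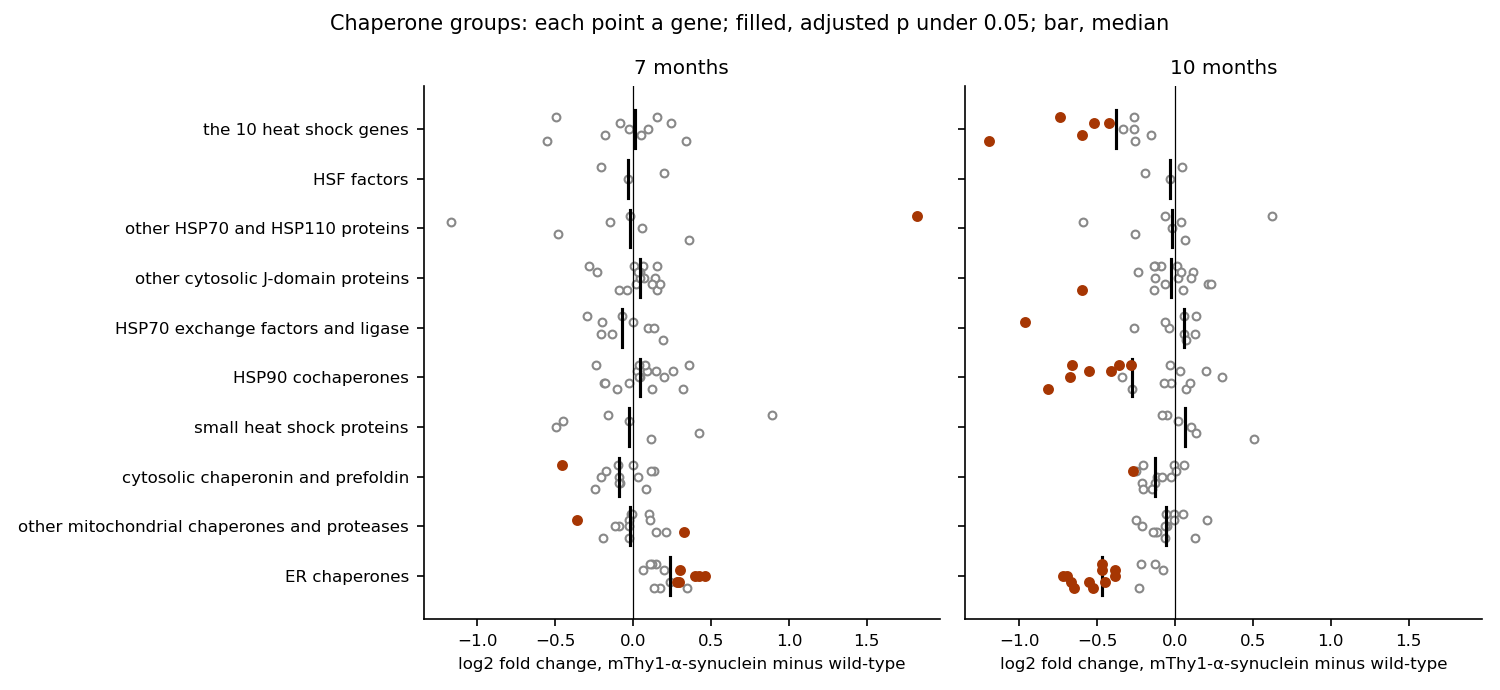
Log2 fold changes (mThy1-α-synuclein minus wild-type) of the 10 heat shock genes, the 8 wider chaperone lists and the chaperones of the endoplasmic reticulum (ER), at 7 months (left) and 10 months (right); each point is a gene, filled points have an adjusted p under 0.05 and bars are list medians. At 10 months the called genes are mostly among the 10 heat shock genes (median -0.38), the HSP90 cochaperones (median -0.28) and the ER chaperones (median -0.47), and all of them lie below 0.

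Markers of other cells moved with the same comparison. At 10 months the 8 border macrophage markers summed to 19002 to 24461 normalized counts in mThy1-α-synuclein and 25908 to 35885 in wild-type mice, without overlap, and 5 of them were called lower. The 9 neutrophil markers summed to 71543 to 194151 and 154454 to 391204, with 2 called lower. Of the 12 microglia markers 4 were called higher, and their sums were 1963900 to 2218350 and 1808630 to 2043150. Over all 13627 genes tested at this age, 516 were called lower and 529 higher. No marker of these lists was at 0 in all mice of a group. Wild-type replicate 1, highest in 9 members, had the highest border macrophage sum of its group (35885) and the fourth highest neutrophil sum of 5 (236056). Of 20 immediate-early genes, which are induced within minutes when cells are handled, 2 were lower at 10 months, Fosl2 and Fosb, which are named after their values were seen, and the sums overlapped (109907 to 142839 against 109602 to 147910). The part of these cells and of handling in the member results was not tested.

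At 7 months the sums of neuron markers (367 to 706 against 874 to 1666) and of oligodendrocyte markers (7868 to 10230 against 12790 to 18255) were lower in mThy1-α-synuclein mice without overlap, with 6 of 12 and 3 of 9 tested genes called. The border macrophage sums (22027 to 36748 against 22665 to 32181) and the neutrophil sums (43680 to 442487 against 74882 to 283853) overlapped, and no gene of either list was called. Of 9 astrocyte markers 3 were called lower and 1 higher, and the sums overlapped (9668 to 12460 against 9127 to 11878). Of 10 endothelial markers 2 were called lower, and the sums did not overlap (4056 to 5880 against 6165 to 7549). Over all 13887 genes tested at this age, 375 were called lower and 309 higher. Their part in the 7-month values of the members was not tested either.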

How the data were processed

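Microglial RNA of 20 mice was analysed in 4 groups. Per the labels and the methods, the authors trimmed reads with Trim Galore 0.6.7, mapped them to mm10 with HISAT2 2.2.1, counted them per gene with featureCounts and normalized them with DESeq2 1.44.0. The deposited signal values are these counts divided by a size factor per mouse. All values were whole multiples of 1 step per mouse within a tolerance of 0.1 reads (100% of values), and the steps equalled size factors recomputed within an age, so reads were recovered and ages had been normalized separately. The deposited single-mouse values equalled the table in 20 of 20 mice. The annotation, strand and treatment of multiple matches are not given in the sources used here.

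The main test was limma 3.58.1 in R 4.3.3 on log2(value + 1), with trend and robust estimation, for genes that reached 10 normalized counts in 4 or more mice at 7 months or in 5 or more at 10 months, and their union for the difference between the ages (1 fit of 4 groups). p-values are two-sided, adjusted by Benjamini-Hochberg over all genes tested, with a threshold of 0.05. A called gene is one past it. The script was tested on simulated data. Alternatives were pseudocounts of 0.5 and 5, other filters and scalings, edgeR 4.0.16 and DESeq2 1.42.0 on recovered reads, voom weights, a replicate block and leaving out each mouse. Summing Hspa1a and Hspa1b was added after seeing the data. No sample was left out of the main fit. Labels number the mice within a group, and p-values measure the spread between mice.

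Named genes are the 10 members, from each wider list up to 5 genes past the threshold (or the one with the smallest p), from each marker or comparison list up to 3 of the highest mean, and the 5 genes most like the members' mean. The members and lists were chosen with earlier results of these data known. Exon lengths, which join the exons of all transcripts of a gene, and positions are from GENCODE M21 (GRCm38). Python 3.11.15, numpy 2.4.6, pandas 2.3.3 and matplotlib 3.10.9 were used.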

Additional observations from a re-analysis of the deposited data

Results flagged for a closer look

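Among 40 checks of the 10 members in the 4 groups, 6 found a mouse far from the others of its group, where chance gives about 1 in 20 such checks. In wild-type mice at 10 months, replicate 1 stood far above the rest in Hsph1 (8614 normalized counts), Dnaja1 (23803) and Hspd1 (14583). In wild-type mice at 7 months, replicate 4 stood above the rest in Hsph1 (3695), and replicate 3 stood below the rest in Hsp90aa1 (28354). In mThy1-α-synuclein mice at 10 months, replicate 1 stood above a narrow group in Hspa1a (9534). The members share mice, so these checks are not independent.

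The genotype effect differed between the ages by limma's test of the difference for 3 members, at -0.76 on the log2 scale for Hspa8, -1.53 for Hsph1 and -0.65 for Hsp90ab1 (10 months minus 7 months). No mThy1-α-synuclein mouse at 10 months was above any wild-type mouse in these genes.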

How the results depend on the processing

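Over the named members, 146 recomputed values of called results kept their call, 52 lost it and 0 changed sign, and of results that were not called 516 stayed so, 7 became called and 13 changed sign, all near 0. Over the fits that leave out 1 mouse, these values ran from -0.17 to 0.034 for Dnajb1, -0.10 to 0.057 for Hsp90aa1 and -0.043 to 0.11 for Hsp90ab1 at 7 months, and from -0.026 to 0.080 for the difference of Hspe1. The sign changed for the 7-month log2 fold changes of Hsp90aa1 (3 settings), Hsp90ab1 (2, one of them the replicate block, at -0.078) and Dnajb1 (1), and the Hspe1 difference between the ages (7 settings). Leaving out 1 mouse gave 0 called members at 7 months, 1 to 6 at 10 months and 1 to 4 in the difference; 1 to 4, 5 to 10 and 8 to 14 of the wider chaperone genes; and 280 to 860, 497 to 1235 and 623 to 1100 of all genes. Fewer mice leave fewer degrees of freedom. Without trend and robust estimation 2 members, 6 wider genes and 565 of all genes were called at 10 months, and 408 of all genes at 7 months. DESeq2 called 1158 of all genes and 7 wider genes at 7 months, and 1694 of all genes at 10 months. Equal replicate numbers did not pair the mice (correlations of same-numbered mice of -0.134 to 0.0995). At 7 months mThy1-α-synuclein replicates 5 and 6 had no wild-type mouse of the same number. The block fit therefore took the genotype effect of that age, also within the difference, from replicates 1 to 4 of each genotype. With the replicate block 2 members were called at 7 months, Hspa1a (-0.72, adjusted p = 0.0173) and Hspa1b (-0.65, adjusted p = 0.0323), with 414 of all genes and 2 wider genes, and in the difference 481 of all genes and 8 wider genes were called, and the Hsp90ab1 difference was not (-0.52, adjusted p = 0.0581). Of the other chaperone genes named, the block also ended the calls of the difference for Ahsa1 (adjusted p = 0.0738), Cct3 (0.0686), Bag1, Cct8 and Yme1l1, of Clpx, Dnajc19 and Hsp90b1 at 7 months and of Cct3 at 10 months. The parts of the unmatched mice and of the block in these shifts, and the cause of the other shifts, were not tested. Depth did not limit the members.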
